A study of Mus musculus with 2 samples.

Results

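Intergenic regions of open chromatin found in both libraries of a series labelled mouse thymus were chosen by the presence and position of their DNase-seq peaks. Overlapping peaks of the shorter deposited peak list of each library were merged (1 bp of overlap was enough), and 35217 merged regions held a peak of both libraries. Of these, 8018 (22.8%) had their midpoint outside every annotated gene and over 1 kb from every annotated transcript start. Of the other shared regions, 18125 lay within 1 kb of a transcript start and are called promoter regions, 7733 lay in introns and 1341 in exons. A further 13536 intergenic regions had a peak of the library labelled replicate 1 alone, and 6784 had a peak of the library labelled replicate 2 alone. Presence of a peak, its signal and its position took part in the choice, so signal and distance are given as descriptions.

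DNase-seq maps chromatin that the nuclease DNase I can cut. The labels give both libraries as thymus of B6CASTF1/J mice, an F1 hybrid, all male and 36 days old. No treatment is named, and the libraries form 1 group. The labels count them as separate biological replicates and their descriptions name different males, but the donor identifier is the same for both, which leaves unclear whether 1 or 2 mice were used. The files hold no read counts, so depth is unknown. With 2 libraries in 1 group, nothing was tested over libraries.

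The libraries went apart at marker genes, and the markers of the library labelled replicate 1 went against its thymus label. Replicate 1 and replicate 2 are used here as the names on the labels. Of 21 T cell receptor and thymocyte genes, 4 had an open promoter (a peak inside the 1 kb around a start) in replicate 1 and 21 in replicate 2. Of 20 annotated pancreatic acinar genes, 20 had one in replicate 1 and 5 in replicate 2, while over all protein-coding genes the shares were 63.1% and 60.1%. Of 18 T lineage transcription factors, 16 had an open promoter in replicate 1 and 18 in replicate 2. Whether replicate 1 holds thymus tissue is thus not settled by these files. The intergenic regions described here are therefore those open in both of these unlike libraries, and their values are given in each.

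Open chromatin between genes includes enhancers, insulators and promoters missing from an annotation. CTCF is a zinc finger protein that binds a long DNA motif at insulators and, with the ring-shaped cohesin complex, marks the bases of chromatin loops. Many of its sites are open in most tissues, whereas many enhancers are open in few. A bound protein shields its site from DNase I, and the shielded stretch inside a region that is otherwise cut is called a footprint.

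CTCF was the most common of the 15 motifs searched for in these regions. A match was the 14-base core of the CTCF consensus on either strand with at most 1 mismatch. The sites below are the 10 strongest members with a match, ranked by the mean of their signal percentiles in both libraries, followed by the 3 sites with a match among the 5 members farthest from a transcript start. They are shown so that the core and its flanks can be read, at strong sites and at sites far from a start. Each is named by the nearest protein-coding gene and read 5′ to 3′ on the strand of the match, with the core in capitals, from the RefSeq GRCm38.p6 assembly (mm10).
Trpv4, chr5:114667709-114667742, minus strand: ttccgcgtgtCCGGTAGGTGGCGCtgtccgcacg
Ptma, chr1:86525463-86525496, minus strand: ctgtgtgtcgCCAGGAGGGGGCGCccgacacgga
Yy1, chr12:108758008-108758041, minus strand: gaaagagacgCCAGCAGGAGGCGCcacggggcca
Olfr750, chr14:51064949-51064982, minus strand: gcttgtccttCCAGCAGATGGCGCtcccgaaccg
Psrc1, chr3:108389334-108389367, plus strand: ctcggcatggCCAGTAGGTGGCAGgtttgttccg
Chd2, chr7:73618503-73618536, minus strand: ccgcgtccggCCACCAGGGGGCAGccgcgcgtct
Ptma, chr1:86532537-86532570, minus strand: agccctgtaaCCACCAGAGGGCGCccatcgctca
Lag3, chr6:124903740-124903773, plus strand: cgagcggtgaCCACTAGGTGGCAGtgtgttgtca
Pllp, chr8:94704202-94704235, plus strand: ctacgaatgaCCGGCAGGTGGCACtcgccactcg
Ckb, chr12:111668520-111668553, plus strand: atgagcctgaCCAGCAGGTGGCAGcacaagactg
Tox3, chr8:90001083-90001116, plus strand: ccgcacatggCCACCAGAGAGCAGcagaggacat
Cdh26, chr2:178758539-178758572, plus strand: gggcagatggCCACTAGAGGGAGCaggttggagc
Thrb, chr14:17402865-17402898, plus strand: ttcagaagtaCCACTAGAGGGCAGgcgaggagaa

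Members without CTCF matches included stretches rich in CpG, the dinucleotide that gathers at CpG islands. The region below is shown as an example of that kind from among the strongest members, on the plus strand of the same assembly, with each CG in capitals.
Foxk1, chr5:142367321-142367560, plus strand: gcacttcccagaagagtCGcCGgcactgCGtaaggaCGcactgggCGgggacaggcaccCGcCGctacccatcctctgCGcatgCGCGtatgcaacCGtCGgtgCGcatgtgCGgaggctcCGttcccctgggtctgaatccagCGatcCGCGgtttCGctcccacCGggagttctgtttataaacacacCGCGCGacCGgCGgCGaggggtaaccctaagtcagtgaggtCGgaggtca
Another kind lay at or beside tRNA genes, which RNA polymerase III transcribes and which the gene annotation of the rule does not list as genes. The member near Pllp holds a CTCF core, in capitals on the plus strand. Its midpoint was 96 bp from the midpoint of a tRNA gene, which the region overlaps.
Pllp, chr8:94704021-94704260, plus strand: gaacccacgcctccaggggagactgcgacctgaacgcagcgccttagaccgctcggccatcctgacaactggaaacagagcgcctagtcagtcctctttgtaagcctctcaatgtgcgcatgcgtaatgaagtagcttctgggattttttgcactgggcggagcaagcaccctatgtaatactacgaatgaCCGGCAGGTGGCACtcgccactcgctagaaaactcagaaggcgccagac

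A CTCF match was present in 4159 of the 8018 regions, or 51.9% (95% Wilson interval 50.8 to 53.0, for counting only). Over all shared regions the share was 30.6%, and in shared promoter regions it was 10.9%. Shared intronic regions had 51.9% as well, and the difference, intergenic minus intronic, was -0.075 percentage points (Newcombe interval -1.64 to 1.49). The interval holds 0, so no difference from intronic regions was found beyond counting error. The intergenic share stood 41.0 points above that of promoter regions (39.8 to 42.2). Shared exonic regions had 45.7%, a difference of 6.16 points (3.27 to 9.03). In intergenic regions of a single library the share was 10.8% for replicate 1 and 8.53% for replicate 2. The consensus read backwards without complementing, which keeps its length and base content, matched 16 of the 8018 regions (0.20%). With no mismatch allowed 19.4% of the regions matched, and with 2 allowed 75.7% did, against 3.22% for the reversed consensus. The reversed form holds a fixed CpG, which the consensus does not require. With 2 mismatches it matched 10.3% of shared promoter regions. How far its low share here reflects CpG content was not tested.

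**Figure D1:**
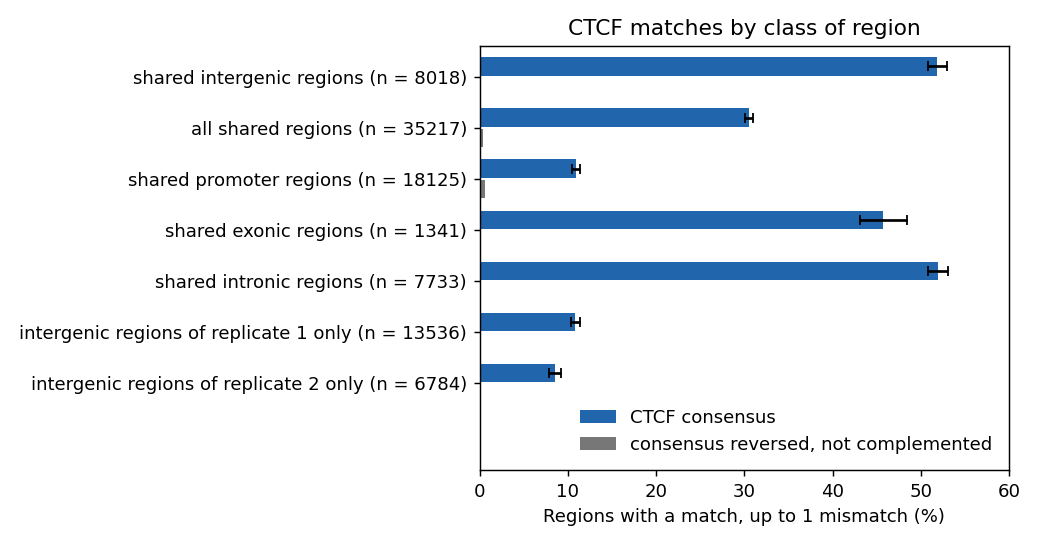
Percent of regions with a match to the CTCF core (blue bars, 95% Wilson intervals) or to the reversed core (grey bars) in each class of region, with n the number of regions. Shared intergenic and shared intronic regions reach 51.9%, while promoter regions and intergenic regions of a single library stay between 8.53% and 10.9%.

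Regions with a CTCF match were found in both libraries far more often than regions without one. Of 6201 intergenic regions with a match in either library, 4159 (67.1%, 65.9 to 68.2) were open in both. Of 22137 without a match, 3859 (17.4%) were. Stronger peaks were shared more often, so the same shares were taken within 5 equal bins of signal. Among intergenic regions with a replicate 1 peak, 26.2% of those with a match were shared in the lowest bin and 97.5% in the highest. Without a match the shares were 9.97% and 49.6%. With replicate 2 peaks the shares rose from 74.2% to 98.0% with a match and from 24.4% to 70.2% without. In each bin of either library the regions with a match had the higher share. The intervals did not overlap, but they cover only the counting of regions in 1 pair of libraries. Presence in both libraries was part of the rule, and these counts come from the same regions as the CTCF shares above. They are a description and add no separate support. A marker gap between the libraries, as at thymocyte and acinar genes, moves with the same comparison, and its part in these shares was not tested.

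**Figure D2:**
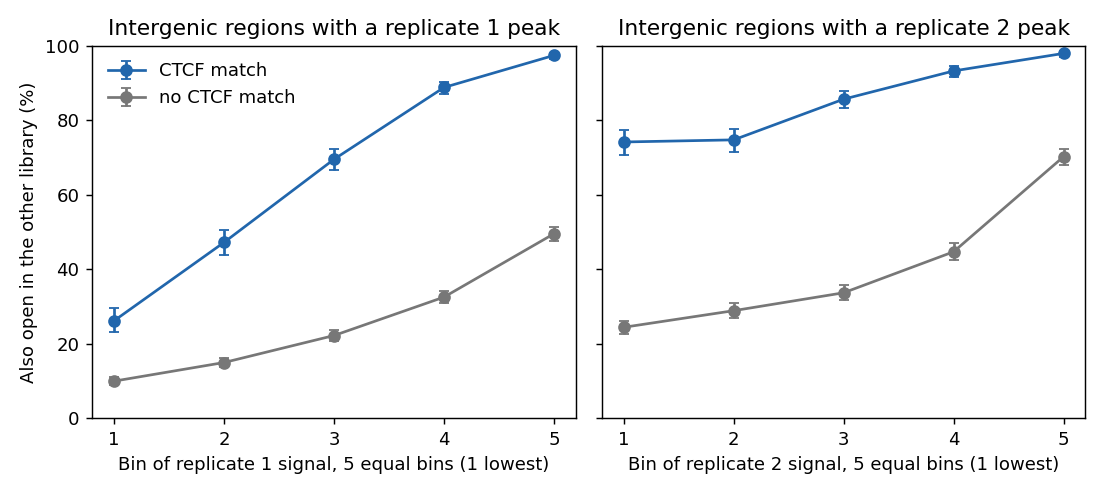
Percent of intergenic regions with a peak of replicate 1 (left) or replicate 2 (right) that also had a peak of the other library, in 5 equal bins of peak signal, with 95% Wilson intervals. Regions with a CTCF match (blue) lie above those without (grey) in all bins, from 26.2% against 9.97% in the lowest bin of replicate 1.

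The cores themselves varied. Of the 4159 best matches, 1556 (37.4%) were exact, 2051 (49.3%) lay on the plus strand and 1799 (43.3%) held a CpG inside the core. There were 756 distinct cores, and the most common, CCAGAAGAGGGCAC, occurred in 90 regions (2.16%). The next were CCACCAGGGGGCAG in 89 and CCAGCAGAGGGCAG in 75. Where the core had a mismatch, it fell most often at position 5, counted from the 5′ end of the core (616 regions, 23.7%), followed by position 1 (429) and position 3 (391). Positions 2, 7 and 8 were seldom the mismatched one (5, 8 and 8 regions). The consensus allows more letters at some positions than at others, which bears on these counts. The core centre lay a median of 8 bp from the region's midpoint (quartiles 4 and 17), and within 25 bp of it in 85.3% of the regions. A T stood 12 bases before the core in 50.5% of the regions, where T made up 24.5% of all bases in them. More than 1 match was rare, with 111 regions holding 2 or more.

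Footprints covered most of these cores in both libraries. At least 7 of the 14 core bases lay in a footprint in 95.8% of the 4159 regions in replicate 1 and in 96.1% in replicate 2. The whole core was covered in 87.9% and 89.5%. Both libraries covered at least 7 bases in 93.2%, and neither did in 54 regions (1.30%). Exact cores were wholly covered in 92.5% and 92.7%. The share of regions with a given base in a footprint peaked at the core's centre, at 95.6% and 96.0%, and averaged 15.4% and 15.1% at 40 to 60 bases from it. Around the core the coverage was not symmetrical. At 21 bases before the centre, 42.0% of the regions had the base in a footprint in replicate 1 and 49.1% in replicate 2, and at 21 bases after it 3.54% and 6.88% did. The shoulder before the core was present in both libraries. At 60 bases after the centre the shares had risen to 35.7% and 43.1%, and at 60 bases before it they were 23.1% and 24%.

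**Figure D3:**
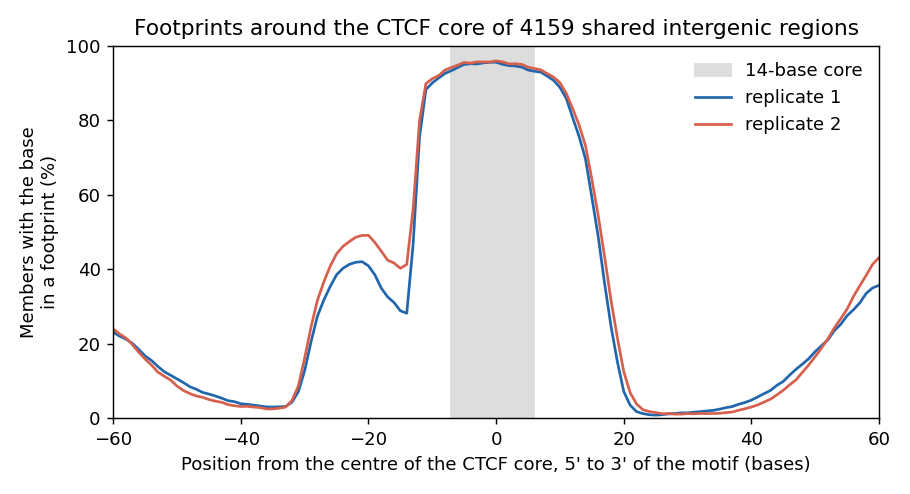
Percent of the 4159 regions with a CTCF match in which each base lay in a footprint, by position from the centre of the core (grey band), for replicate 1 (blue) and replicate 2 (red). Both curves peak above the core, at 95.6% and 96.0%, a shoulder stands on its 5′ side, and both rise again on the 3′ side, to 35.7% and 43.1% at 60 bases.

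The printed sites can be read one by one, as examples and not as support for the shares above. In the region near Trpv4, which encodes a cation channel, the signal was 11.7 in replicate 1 and 28.5 in replicate 2, and the footprint over the core was 29 and 46 bp wide. Near Yy1, a zinc finger transcription factor whose start lay 34872 bp away, the signals were 9.70 and 21.5 and the footprints 33 and 35 bp. Near Lag3, an inhibitory receptor of T cells, they were 8.33 and 20.9, and the footprint was 46 bp in both. The pair of sites near Ptma, which encodes prothymosin alpha, had signals of 13.2 and 21.8 at the first and 10.4 and 13.8 at the second. Their footprints were 32 and 33 bp, and 31 and 34 bp. Near Ckb, which encodes a creatine kinase, the footprint was 31 bp in both libraries, with signals of 8.68 and 14.1. The region near Tox3 was the farthest member of all, 333807 bp from the nearest GENCODE start and 320782 bp from the nearest RefSeq start. Its signal was 4.73 in replicate 1 and 1.62 in replicate 2, and the footprint over its core, which has 1 mismatch, was 33 and 30 bp wide. The exact core near Thrb, a thyroid hormone receptor gene, differed: its footprints were 13 and 11 bp wide and covered 9 and 7 of the 14 core bases, with signals of 0.557 and 0.663. At the other printed sites a footprint held all 14 core bases in each library.

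Nearly all intergenic shared regions had a footprint, with or without a CTCF match. At least 1 footprint had its midpoint in 7732 regions in replicate 1 (96.4%) and in 7841 in replicate 2 (97.8%), while over all shared regions the shares were 93.6% and 94.9%. Shared intronic regions had 96.2% and 97.5%, with intervals that overlapped those of the intergenic regions, and promoter regions had 91.0% and 92.3%. A footprint of both libraries was present in 7626 regions and none of either in 71. Intergenic regions of a single library had footprints of that library less often, in 77.8% for replicate 1 and 85.4% for replicate 2, and their median signal was lower too, at 0.808 and 1.03 against 1.81 and 1.90. How far the lower signal sets the lower share was not tested. With a CTCF match, 98.97% and 99.4% of the regions had a footprint. Without one, 93.7% and 96.0% did.

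The number of footprints was 3 per region in the median in both libraries (quartiles 2 and 4), for a median region length of 200 bp. The most common number was 3, in 2100 regions of replicate 1 and 2362 of replicate 2, and 579 and 516 regions held 6 or more. The highest numbers were 23 and 20. In all, 24940 footprints of replicate 1 and 26210 of replicate 2 lay in these regions, which makes 1.37 and 1.44 per 100 bp. Promoter regions held a median of 5 in both libraries. Of the replicate 1 footprints in intergenic shared regions, 69.8% overlapped a footprint of replicate 2, and 63.3% of those of replicate 2 overlapped one of replicate 1. These shares were near those of other classes, at 66.4% and 63.85% in shared promoter regions and 67.9% and 62.2% in shared intronic ones. In intergenic shared regions with a CTCF match they were 76.5% and 68.7%, and in those without 63.2% and 57.9%.

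Footprints of 30 bp or more were more common in these regions than at promoters, and most common over CTCF cores. The median width was 12 bp in replicate 1 and 13 bp in replicate 2, and 14.6% and 18.9% were at least 30 bp wide. At shared promoter regions 7.39% and 10.2% were that wide, in shared intronic regions 13.7% and 18.2%, and in intergenic regions of a single library 3.13% and 3.69% of that library's footprints. Over CTCF cores the median width was 29 bp in replicate 1 (quartiles 26 and 32) and 31 bp in replicate 2 (27 and 35), and 49.9% and 62.9% were at least 30 bp wide. Elsewhere in the same regions the medians were 10 and 11 bp, and 2.16% and 4.89% were that wide. In regions without a match the medians were 11 and 12 bp, and 11.6% and 14.97% were that wide. Wide footprints were thus not limited to cores with at most 1 mismatch. With up to 2 mismatches 75.7% of the regions matched, so some regions counted as without a match hold such a core. Whether their wide footprints lay on those cores was not tested.

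The peak signal had a median of 1.81 in replicate 1 (quartiles 1.02 and 2.96, range 0.0941 to 67.7) and of 1.90 in replicate 2 (1.02 and 3.52, range 0.146 to 42.9), in the authors' units. How it was scaled is not stated, so levels are compared within a library, and values of both libraries stand side by side without a reading of which is higher. Shared promoter regions were higher in both, at 3.49 and 4.91, and shared intronic regions were lower, at 1.62 and 1.70. Across the 8018 regions the Spearman correlation between the libraries' signals was 0.65. It was 0.82 across promoter regions and 0.57 across intronic regions. Across regions with a CTCF match it was 0.69 (n = 4159), and across those without 0.61 (n = 3859). These are descriptions across regions of the same pair of libraries, and each region had to pass the peak threshold in both. The ratio of replicate 2 to replicate 1, which moves with the unknown scaling as a whole, had a median of 1.14 here and 1.56 at promoter regions, and here ran from 0.50 to 2.51 once the lowest 10% and highest 10% were set aside.

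**Figure D4:**
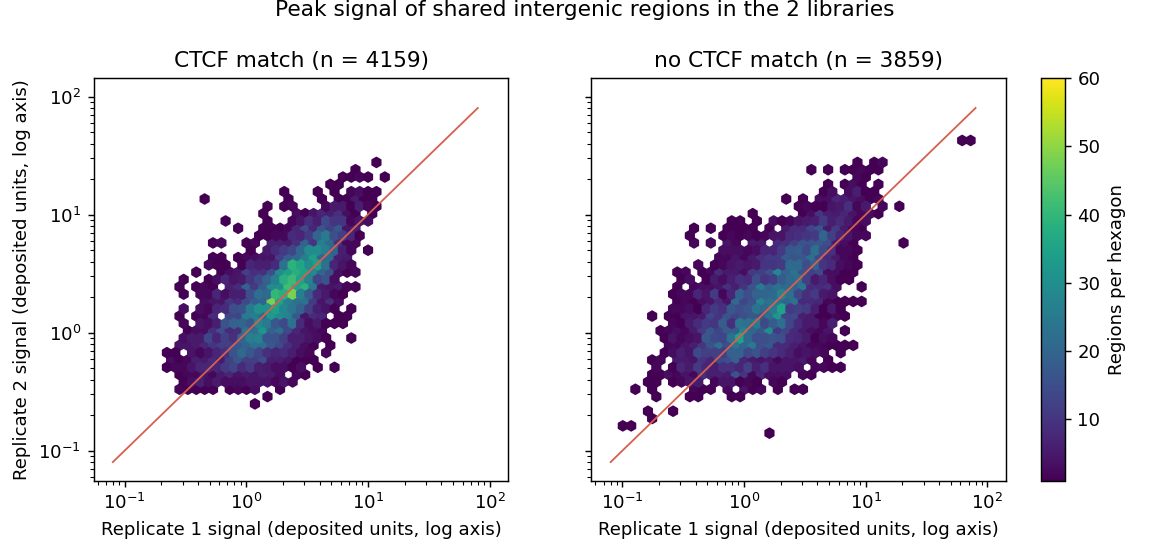
Peak signal of each shared intergenic region in replicate 1 and replicate 2, on log axes in the deposited units, for regions with a CTCF match (left) and without (right); colour gives the number of regions per hexagon and the red line marks equal values. Both clouds follow the line, with a Spearman correlation of 0.69 on the left and 0.61 on the right.

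CTCF content changed with signal. In the lowest of 10 equal bins by mean signal percentile 40.1% of the regions had a match, in bin 9 59.9%, and in the highest bin 52.1%. The highest bin was also the one richest in CpG. Regions with 5 or more CpG per 100 bp made up 3.87% of the lowest bin and 37.4% of the highest. The share within 1 kb of a RefSeq transcript start, tRNA genes included, went from 4.61% to 16.5%. The rule did not use that annotation.

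Of the 10 strongest regions without a further copy in the assembly, 9 had 5 or more CpG per 100 bp and 2 had a CTCF match. The printed region near Foxk1, a forkhead transcription factor, had signals of 13.4 and 26.2, 11.3 CpG per 100 bp and no match. It lay 34056 bp from the nearest GENCODE start but 1771 bp from a RefSeq start, and held 7 footprints in replicate 1 and 5 in replicate 2. A region near Ccne1, which encodes cyclin E, had 11.03 and 24.7.

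The 2 highest signals of all belonged to repeated sequence. The region near Gm8797, chr3:5860361-5860530, had 59.4 and 42.9 with 15 further copies in the assembly, and the one near Igf2bp3, chr6:49236421-49236620, had 67.7 and 42.7 with 2. A further copy was an alignment of at least 90% identity over at least 80% of the region. Reads from such copies could not be told apart in these files. In all 249 regions (3.11%) had one, against 2.19% of all shared regions, and 70 had 10 or more. Their median signals were low, at 1.03 and 1.18, and 46.2% held a CTCF match.

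CpG-rich regions and regions at or beside tRNA genes formed small groups with high signal. In all 849 of the 8018 regions (10.6%) had 5 or more CpG per 100 bp. The share was 43.4% of all shared regions, 75.02% of shared promoter regions and 6.41% of intronic ones. The median signals of these 849 were 3.10 and 4.31, and 25.3% had a CTCF match. A RefSeq transcript start lay within 1 kb of 635 regions (7.92%), against 49.2% of all shared regions and 5.11% of intronic ones. These starts include those of tRNA genes, so this group and the tRNA group overlap. The midpoint of a tRNA gene lay within 250 bp of the midpoint of 128 regions (1.60%). The share was 0.537% of all shared regions and 0.129% of intronic ones. The median signals of these 128 were 3.97 and 5.63, and 5 of them had a CTCF match. The printed region near Pllp was 1 of the 5, with signals of 8.44 and 16.4 and a 50 bp and a 49 bp footprint on its core. Together, 5069 regions (63.2%) had a CTCF match, 5 or more CpG per 100 bp, a tRNA gene within 250 bp or a RefSeq start within 1 kb, and 2949 (36.8%) had none of these. Bases masked as repeats made up at least 50% of 487 regions (6.07%), and 3524 (44.0%) had no masked base. In all shared regions these shares were 3.67% and 46.9%, and in intronic ones 7.51% and 42.35%.

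Other motifs were less common than CTCF as searched, with 1 mismatch allowed for CTCF and none for most of the others. With no mismatch allowed, CTCF matched 19.4% of the regions, not far above the 16.5% of the E protein motif given below. REST, a repressor of neuronal genes with a long motif, matched 71 regions (0.886%, reversed motif 0.0249%). Its share was near this in all shared regions (0.70%) and in shared intronic regions (0.85%). NRF1, a factor of many housekeeping promoters, matched 75 (0.935%), against 9.13% of promoter regions and 5.09% of all shared regions. The RUNX motif, searched as TGTGGTTT on both strands, matched 1.73% of the shared intergenic regions, 1.71% of those of replicate 1 alone and 5.12% of those of replicate 2 alone. RUNX factors act throughout T cell development. The GATA motif, AGATAAG, matched 2.42% of the shared regions, 5.22% of those of replicate 1 alone and 2.37% of those of replicate 2 alone. HNF1, a factor of liver, kidney and pancreas, matched 0.212% of the shared regions, 1.59% of those of replicate 1 alone and 0.0295% of those of replicate 2 alone. Over all shared regions they matched 1.42%, 1.79% and 0.190%. The E protein motif, CAGCTG, matched 16.5% of the shared intergenic regions, 21.8% and 22.6% of those of replicate 1 alone and replicate 2 alone, and 18.5% of all shared regions. The AP-1 motif, TGANTCA, matched 6.17%, but its reversed form matched 4.93%, and 5.21% of all shared regions held the motif. Overlaps with other motifs were not removed.

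The regions lay closer to genes than intergenic sequence as a whole, as a description of positions that the rule had limited to beyond 1 kb. The median distance to the nearest transcript start was 10440 bp (quartiles 4600 and 21500), where all intergenic bases beyond 1 kb of a start had a median of 25050 bp. Intergenic regions of a single library had medians of 14410 bp in replicate 1 and 12710 bp in replicate 2. The nearest protein-coding start was a median of 18803 bp away, and the nearest gene end 7177 bp. The density fell from 14.8 regions per Mb of intergenic sequence at 1 to 2 kb from a start to 4.39 at 20 to 50 kb and 0.581 beyond 100 kb, where 105 regions lay. The median signals fell as well, from 2.05 and 2.29 at 1 to 2 kb to 1.14 and 0.840 beyond 100 kb. The share with a CTCF match was 42.3% at 1 to 2 kb (38.6 to 46.1), 56.1% at 10 to 20 kb (53.9 to 58.3) and 56.2% beyond 100 kb (46.6 to 65.3). Regions with a match had a median distance of 11229 bp and those without 9591 bp.

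**Figure D5:**
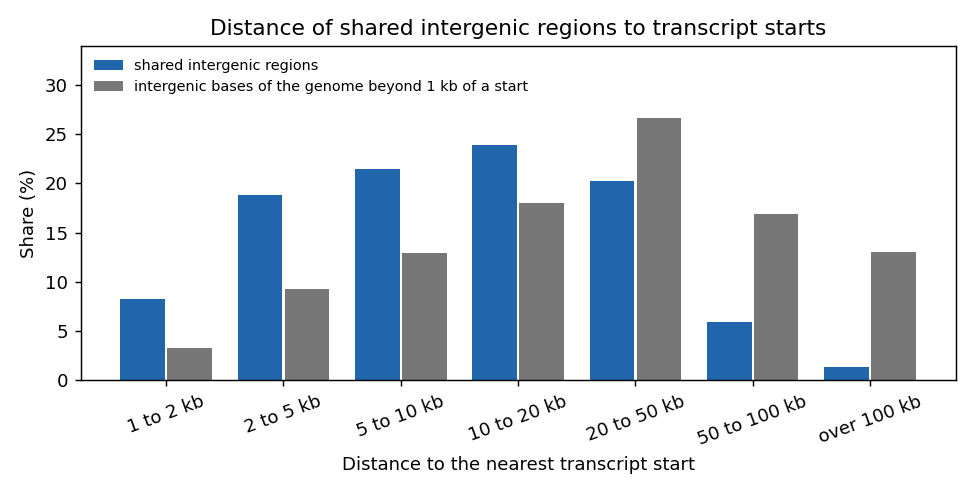
Percent of the 8018 shared intergenic regions (blue) and of intergenic bases beyond 1 kb of a start (grey) in each bin of distance to the nearest transcript start. The regions exceed the sequence in each bin up to 20 kb and fall below it from 20 kb on, with 1.31% of regions and 13.0% of bases beyond 100 kb.

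The start nearest to a region was that of a protein-coding gene for 4117 regions (51.4%), of a processed pseudogene for 1324 and of a lincRNA, a long noncoding RNA gene between other genes, for 1156. Upstream of the nearest protein-coding start lay 4836 regions (60.3%). The nearest gene end was a 3′ end for 4371 (54.5%). The rule left out gene bodies, which lie downstream of starts, and sequence within 1 kb of a start. That choice bears on the upstream share and on the 3′ share, and neither was computed for intergenic sequence as a whole. At the threshold of 1 kb, the 363 regions just inside (1000 to 1500 bp) had median signals of 2.04 and 2.24, 2.27 CpG per 100 bp and a CTCF match in 40.8%. The 616 regions outside genes just below it (500 to 1000 bp) had 2.05 and 2.33, 3.33 CpG per 100 bp and 27.8%. The nearest members lay 1003 bp (near Pgls) and 1004 bp (near Slc5a5) from a start, and the nearest regions left out lay at 1000 bp (near Thrb, not the site printed above) and 999 bp (near Adgrb2). Their signals were 0.917 and 1.16 near Pgls, 2.63 and 3.64 near Slc5a5, 3.43 and 1.95 near Thrb, and 1.74 and 1.61 near Adgrb2.

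Chromosomes differed in density, which was 5.78 regions per intergenic Mb overall. Chromosome 11 had 12.8 (687 regions), chromosome 19 had 8.91, and the X chromosome had 2.18 (239 regions). Male cells carry a single X, and a lower copy number and fewer open regions could not be told apart there. The share with a CTCF match differed less, between 46.6% on chromosome 13 and 57% on chromosome 16 among chromosomes other than Y, where 4 regions lay.

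Neighbouring CTCF matches were grouped by strand, since loop bases often carry motifs that point toward each other. Of 2037 pairs of intergenic regions with a match and no other shared match between them, 493 (24.2%) pointed toward each other, 568 (27.9%) away from each other, and 976 (47.9%) the same way. Of all the cores, 49.3% lay on the plus strand. The shares that strands placed at random would give were not computed. No excess of pairs pointing toward each other is read from these shares, and they were the least common kind. The median spacing was 95042 bp for pairs that pointed toward each other, 52230 bp for those pointing the same way and 41579 bp for those pointing away. Pairs that pointed toward each other thus had the widest median spacing of the 3 kinds.

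Some 100 kb windows held many regions and few CTCF matches. Of 27268 windows, 4931 held at least 1 region and 111 held 5 or more. The 696 regions in the latter had a CTCF match in 29.9% and a tRNA gene within 250 bp in 12.4%. The 3069 regions that were alone in their window had 56.2% and 0.261%. The densest window, chr12:86800001-86900000, held 14 regions near Irf2bpl and Lrrc74a, none of them with a match, which allows a share of up to 21.4%. Its signals ran from 0.729 to 8.62 in replicate 1 and from 0.932 to 14.3 in replicate 2. A window on chromosome 17 near Zfp36l2, an RNA-binding protein that destabilises mRNAs, held 14 regions with 1 match. There the medians were 0.259 in replicate 1 and 0.948 in replicate 2, with ranges of 0.133 to 5.67 and 0.301 to 15.9. A window on chromosome 11 reached from Aurkb, a mitotic kinase, to Per1, a clock gene. It held 13 regions, 10 of them at or beside tRNA genes, with medians of 4.98 and 6.53. A window on chromosome 13 near Abt1 and Btn1a1 held 11, with 8 at or beside tRNA genes.

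Of 21911 protein-coding genes, 4995 (22.8%) were the nearest to at least 1 of the regions. Among 18 T lineage transcription factors 12 were, and among 21 T cell receptor and thymocyte genes 6. Of the 20 acinar genes 5 were, and of 16 insulator and cohesin genes 6. Runx3, which directs cytotoxic T cell fate, had 6 regions, with highest signals of 3.87 in replicate 1 and 12.2 in replicate 2. Ets1, a factor of lymphoid development, had 4, with 3.16 and 9.41. Tcf7, a factor of early T cell commitment, had 1, with a CTCF match and signals of 2.25 and 9.33. Id3, an inhibitor of E proteins, had 2, with 3.01 and 10.3.

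Near thymocyte genes, shared regions existed where the promoter was open in replicate 2 alone. Cd2, an adhesion receptor of T cells, had 4 regions, with highest signals of 5.02 and 17.5, and Thy1, a surface glycoprotein of thymocytes, had 3 that all held a CTCF match, with 3.29 and 7.13. Cd3e, a chain of the T cell receptor complex, had 1 with a match, at 1.98 and 2.62. The 6 such genes had 11 regions in all, 8 of them with a match. Near acinar genes the region of Cpb1, a carboxypeptidase, had 4.52 and 0.508, and the highest values of the 2 regions of Ctrc, a chymotrypsin, were 5.49 and 3.51. Ptf1a, a factor of acinar fate, had 4.01 and 3.19. The region assigned to Nr5a2, a nuclear receptor, lay 370363 bp from its start and had 0.502 and 3.83. Among regions assigned to insulator and cohesin genes the highest signals were those of the Yy1 region, given above. That region lay 34872 bp from the Yy1 start and 90 bp from the RefSeq start of Gm33628. Smc3, a cohesin subunit, had 1 region with a CTCF match, at 1.40 and 1.70. In bulk tissue, a higher signal from more cells of a type and from more open chromatin per cell cannot be told apart.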

How the data were processed

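DNase-seq was measured in 2 libraries labelled as thymus of male B6CASTF1/J mice; the markers of replicate 1 go against that label, as the results give. The deposited peak lists give a signal per peak, per the files' own columns, and are on mm10 per the labels. The deposited footprint lists carry a score that is 0.01 in every line and was not used to rank footprints. Which aligner and callers were used, with which thresholds, and how the signal was scaled: not given in the sources used here. Peaks numbered 85367 (replicate 1) and 60644 (replicate 2) in the shorter lists, and 126824 and 88164 in the longer ones. There were 316358 and 270843 footprints.

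Regions were merged and placed by midpoint against GENCODE vM21 (55413 genes, 132629 distinct transcript starts). A region's signal is that of its highest peak in each library. A footprint counted where its midpoint fell in the region. Motifs were counted on both strands of the RefSeq GRCm38.p6 sequence, which holds no alleles of the hybrid's other parent, with the reversed consensus as control. CTCF and HNF1 allowed 1 mismatch, REST and RFX 2, and the others none. RefSeq starts, which include those of tRNA genes, and tRNA genes came from the same assembly. Further copies were sought with minimap2 2.31, counting at most 50. Intervals are 95% Wilson or Newcombe intervals and cover counting only, since depth is unknown, and a count of 0 allows 3. Scripts ran in Python 3.11.15 with numpy 2.4.6, pandas 2.3.3, scipy 1.17.1 and matplotlib 3.10.9, and were tested on simulated data.

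The regions, gene lists and motifs were chosen with earlier results of these data known. Named were the 10 regions with the highest mean signal percentile, the 10 highest without a further copy, the 10 highest with a CTCF match, the 5 farthest from a start, the 5 densest windows of 100 kb, the 5 regions nearest to 1 kb on each side, and the members of the 4 gene lists; the text gives a selection, and some named items are not reported here. Alternatives changed the overlap, peak list, peak strength, start window, gene set, mismatches and footprint rule, and used 1 library alone. An additional alternative, without regions near RefSeq starts or tRNA genes, was added after seeing the data. The tables of false discovery rates were not used here.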

Additional observations from a re-analysis of the deposited data

How the results depend on the processing

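Each value was recomputed under the alternatives, with 8018 regions, 51.9% with a CTCF match, 96.4% and 97.8% with a footprint (replicate 1 and replicate 2), a median distance of 10440 bp and a signal correlation of 0.65 as the reference. With the stronger 50% of peaks in each library, 3738 regions remained, with 57.4% CTCF matches, footprints in 99.6% and 99.8%, a distance of 8412 bp and a correlation of 0.55. With the longer lists, CTCF was 46.1%, footprints 90.3% and 92.7%, and distance 10943 bp. At 50% reciprocal overlap, CTCF was 55.4%, footprints 97.6% and 98.7%, and the correlation 0.67. A 500 bp window gave 50.1% CTCF, footprints in 95.5% and 97.0%, and 9346 bp, and a 2500 bp window gave 12193 bp. With protein-coding genes only, CTCF was 49.3%, footprints in replicate 2 were 97.3% and the distance was 19740 bp. No mismatch gave 19.4% CTCF and 2 mismatches 75.7%. Without regions near RefSeq starts or tRNA genes (added after seeing the data), CTCF was 53.8%. With 1 library alone, every intergenic peak of the other counted: without replicate 1 there were 15009, and without replicate 2 there were 21925, with CTCF in 31.2% and 25.4%, a distance of 11411 and 12562 bp, and footprints in 91.4% (replicate 2) and 84.4% (replicate 1). The number of regions stayed within 1.5 times under 6 of 9 alternatives. Within its interval stayed the CTCF share under 3 of 13, the footprint shares under 4 of 9 and 3 of 9, the distance under 2 of 9 and the correlation under 5 of 7. The share with a CTCF match thus depends on the mismatches allowed and on the demand that both libraries share the region, more than on the start window. No paired analysis was possible because both libraries belong to 1 group. Read depth is unknown, so no limit from reads can be given.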

Other observations

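Some genes were the nearest protein-coding gene to many of the regions. Irf2bpl and Zfp36l2 had 15 each, of which 2 and 1 held a CTCF match. Camk1g, which encodes a calcium-dependent kinase, had 11 with 6 matches, and Ptma had 9 with 5. Trim27 had 10 and Zfp217, which encodes a zinc finger protein, had 9, and none of these held a match.

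Promoter-type motifs were found at lower shares than at promoters. The SP/KLF motif, GGGGCGGGG, matched 3.26% of the regions, 21.7% of shared promoter regions and 12.6% of all shared regions. It reads the same backwards, so the reversed control says nothing here. The CCAAT motif, CCAATCA, matched 2.49% of the regions (reversed 1.41%), 8.72% of promoter regions and 5.73% of all shared regions. RFX, a factor with a long motif, matched 0.823%, 2.62% and 1.76%.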
